A study of Mus musculus with 394 samples.

Results

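The ribosome-bound mRNA of dopamine neurons in the substantia nigra pars reticulata (SNr) was compared with that in the ventral tegmental area (VTA) in 6 deep, full-length RNA-sequencing libraries, 3 from each region. They are the Cre-positive RiboTag immunoprecipitation (IP) libraries of these regions, out of 18 full-length libraries and 394 libraries in the series, and the labels give the group of each. All came from mice of 10 to 14 months labelled RiboTag_DATCrePos. In these animals Cre recombinase made under the dopamine transporter locus (DAT-IRES-Cre) turns on an HA-tagged ribosomal protein, eL22-HA, so that tagged ribosomes are made where the dopamine transporter locus is active. Regions were cut from fresh, chilled brain slices and frozen, a polysome lysate was made, a small part was kept as Input and the rest was precipitated with an anti-HA antibody. The other 3 kinds of library used here are the SNr and VTA Inputs (3 each), the substantia nigra pars compacta (SNc) IPs, which enter the fit only to estimate the spread between libraries, and shallow UMI-counted IPs of the same regions and age from Cre-positive (4 per region) and Cre-negative mice (RiboTag_DATCreNeg, 6 per region), whose ribosomes carry no tag. The labels name no individual mouse and do not tie an IP to its Input or an SNr library to a VTA library, so the p-values below measure the spread between libraries of a group. The regions were cut from the same midbrain, so SNr and VTA libraries may share animals, which the tests treat as independent.

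Midbrain dopamine neurons make dopamine with tyrosine hydroxylase and aromatic amino acid decarboxylase, load it into vesicles with VMAT2 and take it back up with the dopamine transporter. Those of the VTA and of the dorsal tier of the substantia nigra are known for calbindin, while those of the ventral tier of the SNc are known for the aldehyde dehydrogenase Aldh1a1 and for the transcription factor Sox6. Ventral-tier neurons send long dendrites down into the SNr, a nucleus made mainly of GABAergic projection neurons, and only a few dopamine cell bodies lie in it. The comparison therefore asks which mRNAs on tagged ribosomes differ between a tissue with nigral dendrites and few dopamine cell bodies and one rich in VTA dopamine cell bodies. The study concluded that those few cell bodies outweigh the dendrites in its SNr IPs, so the SNr values cannot be read as those of dendrites. In such bulk tissue, fewer cells of a type and less RNA per cell cannot be told apart.

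Levels are in CPM, a gene's counts per 1000000 gene counts of its library, with no correction for gene length. The 6 libraries held 4018290 to 11363737 counts each. The 3 SNr IPs held 4018290 to 5153095 and the 3 VTA IPs 4738834 to 11363737, and 2 of the VTA IPs were deeper than every SNr IP. The VTA IPs resembled each other closely, with correlations of log2 CPM of 0.955 to 0.96, against 0.821 to 0.852 among the SNr IPs. SNr IP replicate 3 stood apart: it had 25619 genes with a count, against 19885 and 20209 in the other SNr IPs, the lowest summed level of dopaminergic mRNAs and the highest of nuclear RNA. Every log2 fold change is SNr over VTA. A gene is said to have risen or fallen if its p-value from edgeR's quasi-likelihood test, adjusted over all genes tested by the Benjamini-Hochberg method, was under 0.05.

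Of 15321 genes tested, 1617 (10.6%) differed between the SNr and VTA IPs, of which 1100 (7.18%) were higher and 517 (3.37%) lower in the SNr. The gene with the smallest p-value was Ppp1r1b, which encodes DARPP-32 of striatal projection neurons and was higher in the SNr (5.91, adjusted p = 1.66e-09), with a mean log2 level just under the median of the tested genes. Among genes at or above that median, those of smallest p-value that were higher in the SNr IP were mRNAs of astrocytes (Gfap, Gja1, Apoe), of oligodendrocytes (Cnp, Padi2) and of other secreted or immune proteins (C4b, Ptgds, Myoc, Aebp1). Those lower in the SNr IP were the calcium buffers Calb1 and Calb2, the neurokinin receptor Tacr3 and the genes Ahi1, Baiap3, Fstl5, Hap1, Elfn1, Scn9a and Cacna2d1. Of the 1100 genes higher in the SNr IP 389 stood above their Input there, and of the 517 lower genes 437 stood above Input in the VTA IP. Of all 17235 genes tested in the 18 libraries, 9186 (53.3%) stood above Input in the SNr IP and 8177 (47.4%) in the VTA IP. Of the 950 tested genes that stood at least 2-fold above Input in both IPs, 35 were higher and 89 lower in the SNr. The 35 included Aldh1a1, Aldh1a7, Anxa1 and Atp2a3. They also included many predicted genes (such as Gm10800), Snord17, Snord15a, and Bcar1 and Sh3pxd2a, listed below as off-target. These selections use the IP libraries that are compared, so these counts are a description with no test. When the libraries were scaled on the 1056 genes so enriched among those tested in all 18 libraries, 1654 genes were called and 84.4% of them were higher in the SNr, against 68% with the usual scaling, and the median log2 fold change of all genes moved from 0.042 to 0.272. The count was 1062, 1037 and 906 without VTA IP replicates 1, 2 and 3, 1259 without SNr IP replicate 3, and 4188 when all 18 full-length libraries shared the estimate of the spread.

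The dissected tissues themselves differed as well. Between the SNr and VTA Inputs, 4478 of 15849 genes (28.3%) differed, 2276 (14.4%) higher and 2202 (13.9%) lower in the SNr. Of the 992 genes higher in the SNr IP that were also tested in Input, 658 were higher in the SNr Input too and 27 were lower there. Of 516 genes lower in the SNr IP, 313 were lower in the SNr Input and 19 were higher. Whether a gene's regional difference was larger in IP than in Input was tested with all 18 libraries, and 1031 of 17235 genes (5.98%) passed, 746 (4.33%) with a higher SNr-over-VTA ratio in IP and 285 (1.65%) with a lower one. This test uses the same IP libraries as the first comparison, so the values of each are given side by side and not as separate evidence. Its count was 1558 with DESeq2's Wald test and 674 without SNr Input replicate 2.

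The mRNAs that mark VTA and dorsal-tier dopamine neurons were low in the SNr IP. Of 11 such genes, all tested, 10 fell and 0 rose, and their median log2 fold change was -3.36, that of all genes being 0.04. In Input, 6 of the 10 members tested there fell and 1 rose, with a median of -2.78. The SNr-over-VTA ratio was lower in IP than in Input for 5 of the 11 and higher for 1. Calb1, the cytosolic calcium buffer calbindin, stood at 67.5, 88.5 and 50 CPM in the SNr IPs and at 747, 690 and 770 CPM in the VTA IPs. The groups lay far apart, and the difference was -3.44 ± 0.19 (SE, adjusted p = 1.66e-09). In Input the regions did not differ in Calb1 by this test (-0.06, adjusted p = 0.772), with 52.9 to 64.2 CPM in the SNr and 54.7 to 75.2 CPM in the VTA, and the IP difference exceeded that in Input by -3.42 (adjusted p = 2.97e-09). Calb1 was 3.22 log2 units above Input in the VTA IP and 0.2 below it (-0.2) in the SNr IP.

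Tacr3, the neurokinin 3 receptor, showed the same direction more steeply. Its level was 13.9, 6.4 and 11.4 CPM in the SNr IPs and 271, 233 and 277 CPM in the VTA IPs, a difference of -4.66 ± 0.27 (adjusted p = 1.66e-09), and it differed by -3.15 in Input as well (adjusted p = 1.28e-13). Calb2, which encodes calretinin, another calcium buffer, stood at 143, 116 and 85.9 CPM in the SNr IPs and at 849, 771 and 800 CPM in the VTA IPs. It fell by 2.83 on the log2 scale in IP and by 3.31 in Input, and these did not differ detectably (0.43, adjusted p = 0.338).

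Neuropeptide and transmitter genes of VTA neurons were also low. Cck, the precursor of cholecystokinin, stood at 67.2, 59 and 19.2 CPM in the SNr IPs and 163, 204 and 207 CPM in the VTA IPs (-1.99, adjusted p = 0.000184). It differed by -2.41 in Input, and the IP and Input differences were not detectably unlike (0.37, adjusted p = 0.705). Slc17a6, the vesicular glutamate transporter VGLUT2 that some VTA dopamine neurons use, fell by 2.05 in IP and by 4.58 in Input, and was below Input in the VTA IP (-2.1) but not in the SNr IP (0.34). Adcyap1 (PACAP, -4.3, adjusted p = 0.000746) and Grp (gastrin-releasing peptide, -2.98, adjusted p = 0.0282) were near the detection limit in the SNr IPs. Both were lower in the SNr Input too (-5.19 and -6.31), and Adcyap1 stood below Input in the SNr IP (-0.46) and the VTA IP (-1.33). The SNr values of Grp were 0.248, 10.7 and 0 CPM, so its call rested on low and uneven counts, and it was lost in the fit of the 6 libraries alone (adjusted p = 0.0519).

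The transcription factors Otx2 and Neurod6 and the lipase Lpl completed the group. Otx2, which patterns the midbrain and stays on in VTA neurons, was at 0, 3.49 and 1.99 CPM in the SNr IPs and at 22.1, 16.9 and 18.1 CPM in the VTA IPs (-3.36, adjusted p = 0.00559), with no detected difference in Input (-0.28, adjusted p = 0.556). Neurod6 was at 1.24, 0 and 0 CPM against 18.1, 21.5 and 19.7 CPM (-5.61, adjusted p = 0.00166). Lpl, lipoprotein lipase, went opposite ways in IP and Input. It was at 3.97, 6.4 and 20.2 CPM in the SNr IPs against 81, 51.7 and 74.2 CPM in the VTA IPs (-2.8), but at 13.2 to 17.4 CPM in the SNr Inputs against 6.15 to 7.61 CPM in the VTA Inputs (1.11). Vip, at 0, 0 and 0.249 CPM against 4.49, 5.91 and 6.69 CPM, missed the threshold (adjusted p = 0.0517). In the alternative fits 9 to 11 of the 11 genes fell and 0 rose.

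**Figure D1:**
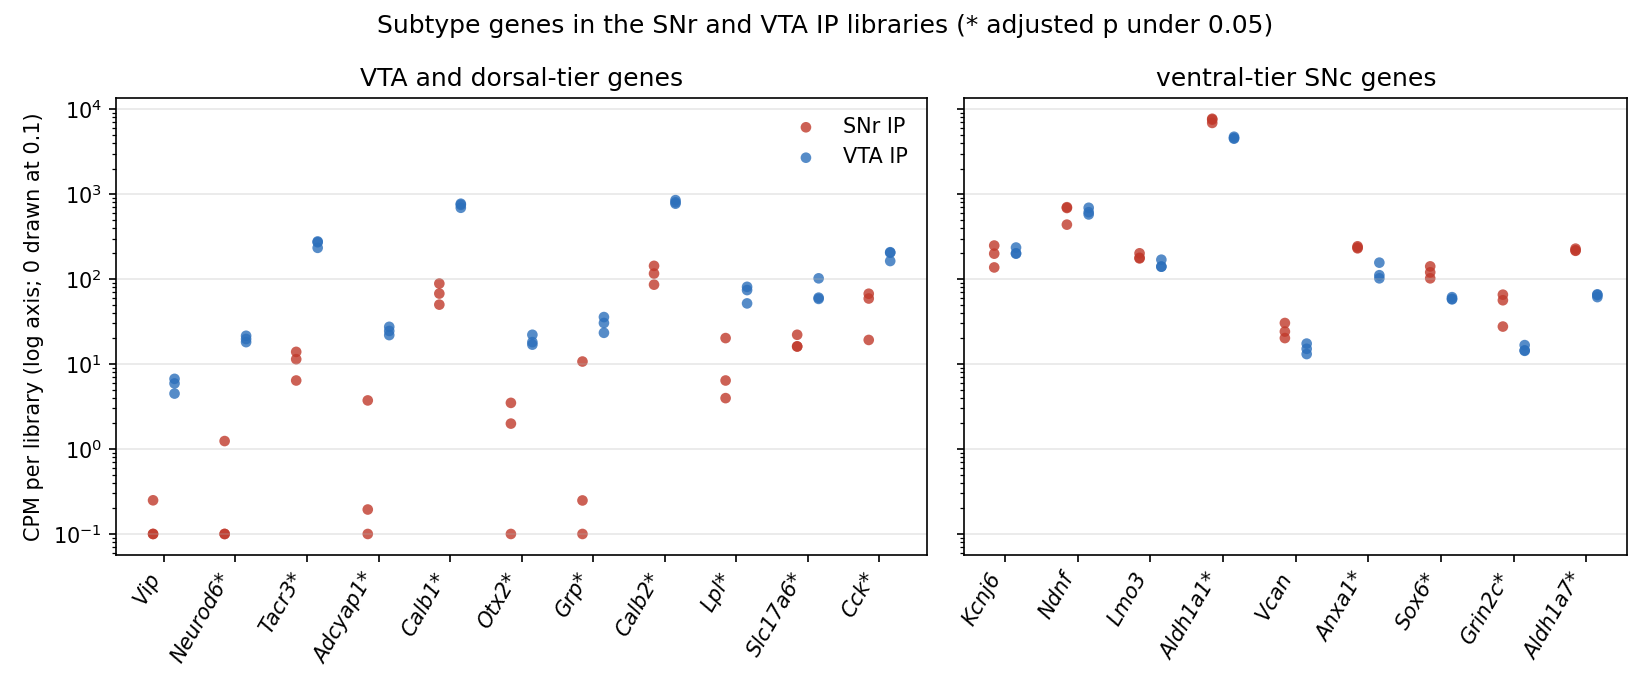
Level of the VTA and dorsal-tier genes (left) and the ventral-tier SNc genes (right) in each of the 6 IP libraries, in CPM on a log axis, with 0 drawn at 0.1. Red points are the 3 SNr IPs and blue points the 3 VTA IPs. For Calb1 the SNr points lie between 50 and 88.5 and the VTA points between 690 and 770, and for Aldh1a7 the order is turned, with 215 to 228 against 61.3 to 66.1.

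Genes of the ventral tier of the SNc were on the other side. Of 9 such genes, 5 rose in the SNr IP and 0 fell, with a median of 0.68. They are Aldh1a7, Grin2c, Sox6, Anxa1 and Aldh1a1. The other members were Ndnf (-0.06), Lmo3 (0.28), the GIRK2 channel Kcnj6 (-0.14) and Vcan (0.68), and none of them passed the test. Without VTA IP replicate 2, 3 of the 9 rose.

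Aldh1a1, which oxidises retinaldehyde and the toxic aldehyde made from dopamine, was among the most abundant mRNAs of both IPs. It stood at 7699, 7510 and 6876 CPM in the SNr IPs and at 4729, 4492 and 4555 CPM in the VTA IPs, with no overlap (0.66 ± 0.13, adjusted p = 0.00278). In Input the order was turned, with 307 to 341 CPM in the SNr and 414 to 496 CPM in the VTA (-0.43, adjusted p = 7.96e-06), and the IP difference exceeded the Input difference by 1.06 (adjusted p = 0.00034). Aldh1a7, a closely related gene next to it, was at 228, 218 and 215 CPM in the SNr IPs and at 61.3, 66.1 and 64.9 CPM in the VTA IPs (1.76 ± 0.21, adjusted p = 2.4e-05). Its Inputs held only 3.01 to 4.67 CPM in either region, so it stood 5.51 log2 units above Input in the SNr IP and 3.66 above it in the VTA IP. Anxa1, annexin A1, a phospholipid-binding protein found in a subset of ventral-tier neurons, was at 243, 230 and 235 CPM against 111, 102 and 156 CPM (0.92 ± 0.2, adjusted p = 0.00548). Without VTA IP replicate 2 the adjusted p of Aldh1a1 was 0.0673 and that of Anxa1 0.0694, with folds of 0.56 and 0.72.

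These 3 genes are neighbours. In RefSeq (GRCm38.p6) Anxa1 lies at chr19:20373434-20390671, Aldh1a1 at chr19:20492583-20643463 and Aldh1a7 at chr19:20692953-20727556, so that all lie within 354 kb. Of 9 RefSeq genes in that stretch 4 were tested, and 3 were called higher in the SNr IP. The other tested gene, C730002L08Rik, was not called (-0.03, adjusted p = 0.993). The 250 bases before the start of Aldh1a1 and of Aldh1a7 are shown because the genes moved together and are related copies. They are RefSeq sequences of GRCm38.p6, written 5′ to 3′ on the gene's strand, at chr19:20601718-20601967 (plus strand, 1 of 2 RefSeq starts of Aldh1a1) and chr19:20727557-20727806 (minus strand). Of the 2 starts of Aldh1a1, the 1 whose window shared most runs with that of Aldh1a7 was taken. The match below is therefore that of a selected window, and the other start is not shown. Capitals mark runs of at least 20 bases that occur in both.
Aldh1a1: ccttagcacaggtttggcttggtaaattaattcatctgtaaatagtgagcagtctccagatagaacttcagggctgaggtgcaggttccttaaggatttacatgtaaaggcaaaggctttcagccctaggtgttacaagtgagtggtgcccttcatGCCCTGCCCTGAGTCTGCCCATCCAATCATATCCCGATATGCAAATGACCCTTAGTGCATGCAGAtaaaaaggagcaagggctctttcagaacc
Aldh1a7: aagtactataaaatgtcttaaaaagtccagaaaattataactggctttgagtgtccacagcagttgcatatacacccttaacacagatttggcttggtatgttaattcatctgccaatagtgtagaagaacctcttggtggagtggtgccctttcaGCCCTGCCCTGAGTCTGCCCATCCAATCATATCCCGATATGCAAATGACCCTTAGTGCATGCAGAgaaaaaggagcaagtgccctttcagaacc
A single run of 65 bases just before the start is shared, and set side by side the windows hold the same base at 129 of 250 positions. The exons of such copies can share reads as well. Only reads with 1 place in the genome were counted, so the split of reads between Aldh1a1 and Aldh1a7 is uncertain.

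Sox6, a transcription factor that marks nigral dopamine neurons from development on, was at 120, 141 and 102 CPM in the SNr IPs and at 58.5, 61.2 and 57.7 CPM in the VTA IPs (1.01 ± 0.24, adjusted p = 0.0108). It differed by 0.29 in Input (adjusted p = 0.0637). Without SNr IP replicate 2 the call of Sox6 in IP was lost (0.81, adjusted p = 0.0649). Grin2c, the NMDA receptor subunit GluN2C, was at 65.5, 56.3 and 27.6 CPM against 14.3, 16.7 and 14.5 CPM (1.71 ± 0.35, adjusted p = 0.00306), with the lowest SNr value in replicate 3. Grin2c is also made by astrocytes, whose mRNAs rose in the same libraries. It stood above Input in the SNr IP (0.55) and below it in the VTA IP (-0.66), while 0 of the 16 astrocyte genes stood above Input in either. The source of its rise was not tested.

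The dopaminergic core genes, taken here as general marks of midbrain dopamine neurons, were slightly lower in the SNr IP. Of 20 genes 8 fell and 0 rose, with a median of -0.53. Th, tyrosine hydroxylase, was at 2638, 2528 and 1787 CPM in the SNr IPs and at 3478, 3891 and 3472 CPM in the VTA IPs. The groups did not overlap, and the difference of -0.66 ± 0.2 had an adjusted p of 0.0387, a call that was lost with DESeq2's Wald test (0.134) and when SNr IP replicate 3 was left out (0.108) or any 1 of the 3 VTA IPs (0.0535 to 0.0699). Slc6a3, the dopamine transporter whose locus drives Cre, was at 3005, 2794 and 2195 CPM against 2681, 2916 and 2508 CPM, and the groups overlapped (-0.04 ± 0.13, adjusted p = 0.905). Ddc, the decarboxylase (-0.28), and Slc18a2, which encodes VMAT2 (-0.46, adjusted p = 0.07), did not pass either.

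Among those that fell were Gch1, which makes the cofactor of tyrosine hydroxylase (76.2, 69.7 and 38.8 against 155, 195 and 179 CPM, -1.53, adjusted p = 0.000858), the homeobox genes En2 (-1.44), Lmx1a (-1.28) and En1 (-0.66), the GDNF co-receptor Ret (-0.69), the nicotinic subunit Chrnb3 (-0.71) and the vesicular protein Slc10a4 (-0.46). The call of Slc10a4 was lost without any 1 VTA IP (adjusted p of 0.109 to 0.126) and without SNr IP replicate 2 or 3 (0.0627 and 0.089). Pitx3, needed for the survival of nigral dopamine neurons, was at 50.1, 38.4 and 58.2 CPM against 50.7, 54.7 and 42.2 CPM, with full overlap of the groups. Nr4a2, Foxa1, Foxa2, Lmx1b, Drd2, Gucy2c, Dlk1 and Chrna6 did not pass, with values between -0.87 and -0.13. In the scaling on genes above Input, 7 of the 20 fell and the median was -0.32, with the median of all genes at 0.272.

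Input gave a very different picture of these genes. Of the 20, 19 fell and 1 (Drd2, 0.33) rose in the SNr Input, with a median of -2.54. Th was at 43.5, 19.1 and 33.2 CPM in the SNr Inputs and at 215, 220 and 206 CPM in the VTA Inputs (-2.73). The regional difference of 18 of the 20 was higher in IP than in Input, with a median of 2, and 0 were lower. All 20 stood above Input in both regions, with a median of 5.09 log2 units in the SNr and 3.06 in the VTA. Summed over the 20 genes, the SNr IPs held 11273 to 16561 CPM and the SNr Inputs 270 to 472 CPM, while the VTA IPs held 19299 to 20754 CPM and the VTA Inputs 1742 to 1897 CPM.

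**Figure D2:**
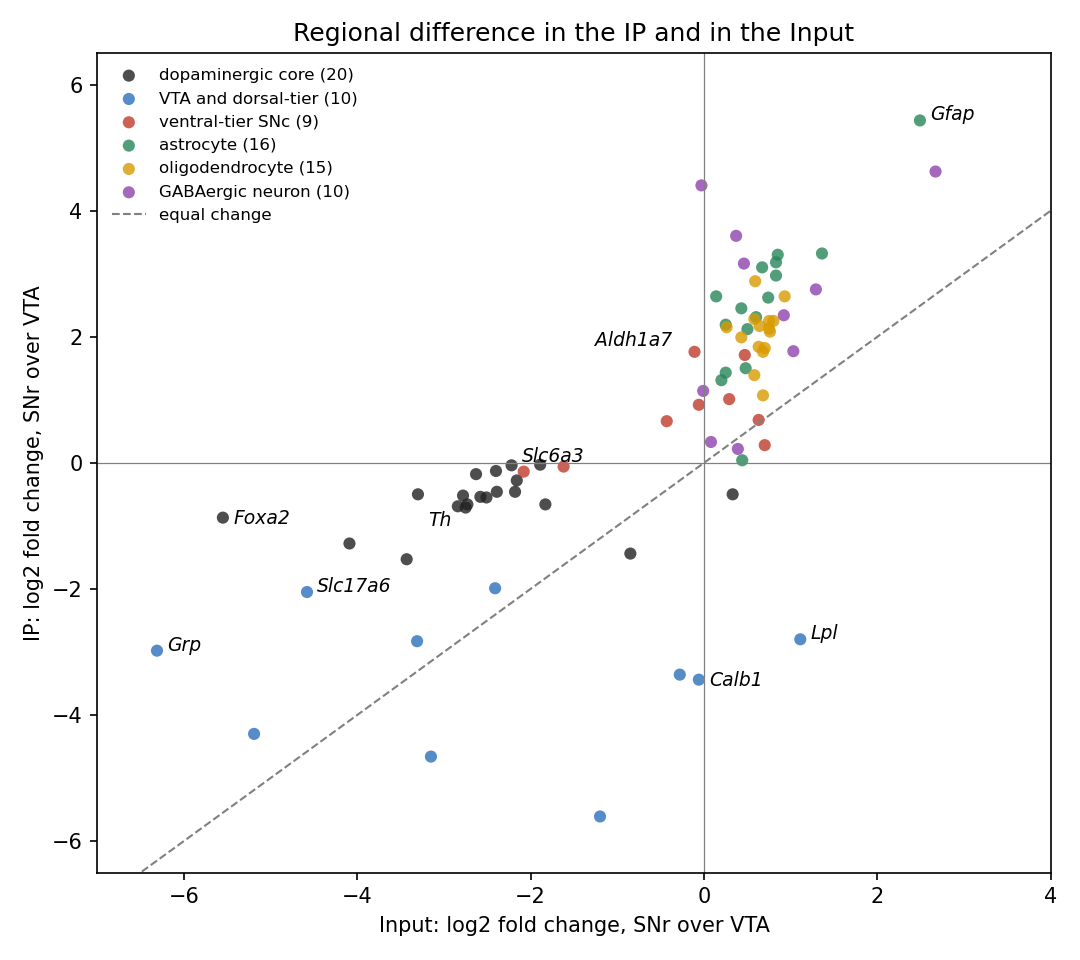
Each point is a gene, placed by its log2 fold change of SNr over VTA in Input (x axis) and in IP (y axis), coloured by gene list, and the dashed line marks equal change. The dopaminergic core genes other than Drd2 lie to the left of 0 and have medians of -2.54 on the x axis and -0.53 on the y axis, Calb1 lies near 0 on the x axis and at -3.44 on the y axis, and 15 of 16 astrocyte genes lie above the line.

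The mRNAs of glial, vascular and GABAergic cells were mostly higher in the SNr IPs than in the VTA IPs. Of 16 astrocyte genes 15 rose in the SNr IP and 0 fell (median 2.53), and the same counts were found in Input at a smaller size (median 0.55). Gfap, the intermediate filament of reactive astrocytes, was at 810, 937 and 1390 CPM in the SNr IPs and at 36.7, 22.4 and 11.4 CPM in the VTA IPs (5.43 ± 0.33, adjusted p = 3.45e-09), and by 2.49 higher in the SNr Input. Apoe, the lipid carrier of astrocytes, was at 1126, 1301 and 1358 CPM against 166, 121 and 91.7 CPM (3.3), and Gja1, connexin 43, at 182, 164 and 234 CPM against 24.4, 27.4 and 21.2 CPM (2.97). The exception was Slc1a2, a glutamate transporter, at 603, 648 and 979 CPM against 744, 639 and 744 CPM (0.04).

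Oligodendrocyte genes rose in 13 of 15 cases (median 2.13), among them Cnp (2.08), an enzyme of myelin. Of 7 precursor genes 4 rose (Cspg4, Olig1, Pdgfra and Gpr17, 2.08 to 2.5), of 11 tested microglial genes 9 rose (median 3.13), with the smallest p-values for Ctss (2.98) and Csf1r (2.8), and of 10 endothelial and mural genes 9 rose (median 2.9), with the smallest p-values for Vtn (3.38) and Cldn5 (3.93). Of 3 tested red blood cell genes Hba-a1 rose (5.58), a call lost without VTA IP replicate 1 or 2 (adjusted p = 0.11 and 0.103). Of the 10 endothelial and mural genes 5 stood above Input in the SNr IP and 0 in the VTA IP (medians -0.05 and -2.08). No member of the astrocyte, oligodendrocyte, precursor or microglial lists stood above Input in either IP. Their summed levels in the SNr IPs were 4945 to 7158 CPM for astrocytes and 2768 to 3275 CPM for oligodendrocytes, against 1508 to 1938 and 558 to 861 CPM in the VTA IPs and 11359 to 11775 and 10433 to 12173 CPM in the SNr Inputs.

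GABAergic genes were higher as well. Of 10, 7 rose in the SNr IP and 0 fell (median 2.55), and 5 rose in Input (median 0.43). Gad1, which makes GABA, was at 303, 347 and 531 CPM against 79.9, 61.6 and 30.9 CPM (2.75, adjusted p = 2.85e-06) and Slc32a1, the vesicular GABA transporter, at 81.6, 52.8 and 58 CPM against 16.1, 23.6 and 16.3 CPM (1.77). Parvalbumin (Pvalb, 2.34) and the transcription factors Gata3 (3.6), Tal1 (3.16) and Six3 (4.62), which mark GABAergic neurons of this region, rose too. Gad2 was at 96.5, 90 and 142 CPM against 99, 93.5 and 84.1 CPM and was not called (0.22). Of 5 tested glutamatergic markers 1, Slc17a6, fell, and of 2 serotonergic markers tested 0 changed. The summed glutamatergic level was 26.5 to 51.3 CPM in the SNr IPs and 63.6 to 112 CPM in the VTA IPs. The summed GABAergic level was 841 to 1176 CPM in the SNr IPs, 286 to 365 CPM in the VTA IPs, 1592 to 1826 CPM in the SNr Inputs and 1016 to 1233 CPM in the VTA Inputs, and 0 of the 10 genes stood above Input in either IP. Without SNr IP replicate 3, 15 astrocyte, 12 oligodendrocyte and 6 GABAergic genes rose, 5 ventral-tier genes rose, and 10 VTA and dorsal-tier and 6 core genes fell.

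RNAs that say something of the preparation moved in the same direction. Malat1, a long non-coding RNA of the nucleus, was at 1293, 1648 and 2095 CPM in the SNr IPs and at 316, 251 and 155 CPM in the VTA IPs (2.78, adjusted p = 2.85e-06), and by 0.23 higher in the SNr Input. With Neat1 (3.3) and Kcnq1ot1 (2.74), 3 of 9 nuclear RNAs rose, while in the SNr Input 2 of the 9 rose and 6 fell (median -0.7). Bcar1, whose mRNA reached 14484 CPM in the shallow IPs of mice without Cre and so is precipitated without a tag, was at 5312, 5460 and 7423 CPM against 2284, 2334 and 2287 CPM (1.37, adjusted p = 1.52e-05), with Inputs of 40.3 to 49.5 CPM. Of the 4 genes listed as off-target in the IP, Sh3pxd2a rose as well (1.96) while Nedd9 (0.61) and Sh3pxd2b (1) did not pass, and the summed level of the 4 was 6625 to 9469 CPM in the SNr IPs and 2930 to 2997 CPM in the VTA IPs. Of 8 mitochondrially encoded genes 2 rose (mt-Nd1, 1.19, and mt-Nd2, 1.54), both lost without SNr IP replicate 3 (0.81 and 1.05, adjusted p = 0.109 and 0.113). Xist, made in female cells, was at 25.8, 38.2 and 39.3 CPM against 4.84, 5.7 and 0 CPM (3.29), while the 3 tested Y-linked genes did not differ detectably, and Xist differed in Input too (1.34, adjusted p = 0.0338). The part of non-dopaminergic RNA, of nuclear RNA, of off-target mRNA and of the sex of the animals in the differences reported here was not tested.

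**Figure D3:**
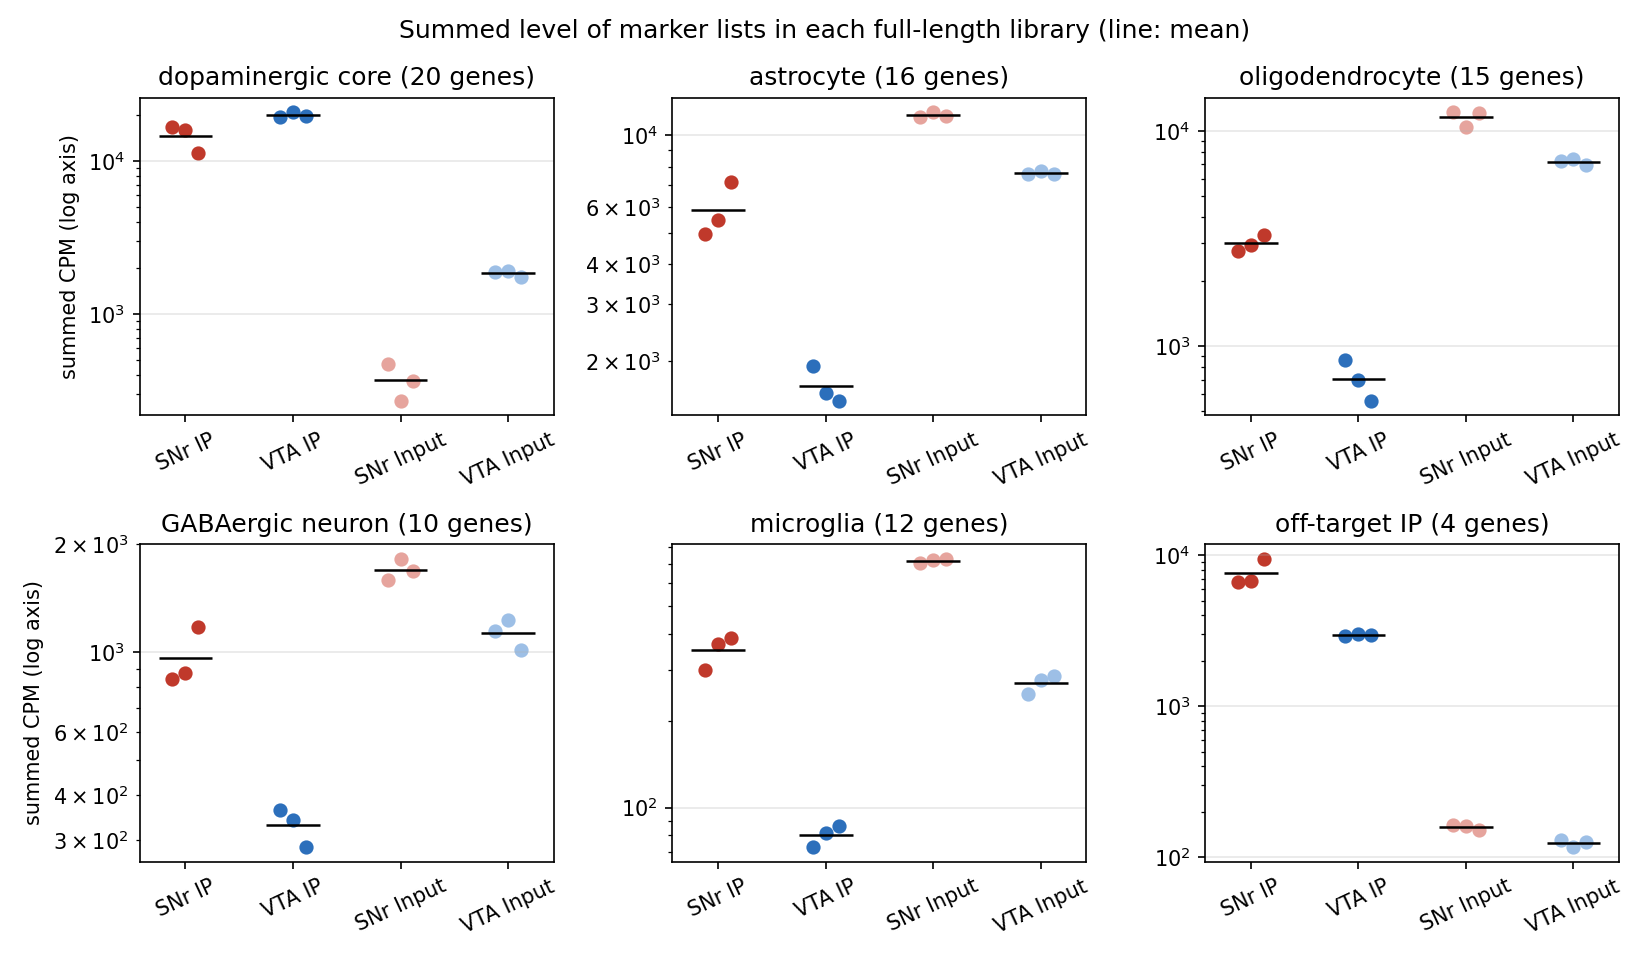
Summed level of 6 gene lists in each SNr and VTA library, in CPM on log axes, with points for the 3 libraries of a group and a line at their mean. Dopaminergic mRNAs are high in both IPs and low in both Inputs, while the astrocyte, oligodendrocyte, GABAergic and microglial sums of the SNr IPs lie between those of the VTA IPs and of the SNr Inputs, and the off-target sum is 6625 to 9469 in the SNr IPs against 2930 to 2997 in the VTA IPs.

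Peptides, receptors and channels had calls in both directions. Over all genes tested, 7.18% were higher and 3.37% lower in the SNr IP, and the counts of each list are to be set against these shares. Of 16 tested neuropeptide genes 2 rose (Penk, enkephalin, at 132, 134 and 213 against 21.5, 19.4 and 8.75 CPM, 3.25, and Tac1, substance P, 2.65), and 5 fell: Cck, Grp, Adcyap1, Cartpt (-2.03) and the granule protein Scg2 (2214, 1955 and 1598 against 3780, 3708 and 3964 CPM, -1.01). Penk and Tac1 were also higher in the SNr Input (2.91 and 1.51) and below Input in both IPs. Of 25 monoamine and peptide receptors 2 rose, the D1 dopamine receptor Drd1 (4.05) and the cannabinoid receptor Cnr1 (1.15). Drd1 was higher in the SNr Input as well (4.23) and stood below Input in the SNr IP (-1.01) and the VTA IP (-0.69). Tacr3, Tacr1 (-1.86), the kappa opioid receptor Oprk1 (-1.62), Adra1b (-1.97, adjusted p = 0.0673 without VTA IP replicate 3) and Crhr1 (-1.11) fell. Oprk1, an inhibitory receptor on dopamine neurons, stood at 27.8, 58.4 and 33.1 CPM against 107, 139 and 117 CPM and above Input in both regions (1.68 and 2.37).

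Of 19 tested GABA and glycine receptor genes 6 fell and 1, Gabrd (3.14), rose (all genes: 3.37% fell and 7.18% rose). Gabrq, a GABA-A subunit of monoaminergic neurons, was at 1.24, 0.97 and 0 CPM against 40, 43.7 and 48 CPM (-5.85), and Glra2, the alpha 2 glycine receptor, at 1.74, 0 and 0 CPM against 33.9, 34 and 29.7 CPM (-5.88, and by -4.26 beyond the Input difference). Gabra3 (-0.65), Gabrb1 (-0.65) and Gabbr1 (-0.55) fell less. Of 24 glutamate receptors 3 rose, among them Grm3 (2.24) and Grin2c, and 3 fell, Grin2a (-0.91), Grin3a (-1.35) and the kainate subunit Grik3 (-0.91). Grm3, a metabotropic receptor found mainly in astrocytes, was below Input in the SNr IP (-1.53). Of 8 nicotinic subunits Chrnb3 alone changed.

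Of 34 voltage-gated and pacemaker channel genes 4 rose and 4 fell (all genes: 7.18% rose and 3.37% fell). Cacna1g, the T-type calcium channel Cav3.1, was at 208, 218 and 161 CPM in the SNr IPs and 101, 127 and 129 CPM in the VTA IPs (0.7, adjusted p = 0.0109) and was lower in the SNr Input (-2.15), so that the IP difference exceeded that in Input by 2.81 (adjusted p = 1.31e-07). The pacemaker channel Hcn2 (0.64) and the potassium channel partner Kcnip3 (0.96) rose, but the call of Kcnip3 was lost without VTA IP replicate 2 (adjusted p = 0.0874) or SNr IP replicate 2 (0.0633). Kcnip4 (-1.03), Scn3a (-1.17), Cacna1e (-0.87) and Cacna1a (-0.62) fell. Cacna1d, the Cav1.3 channel of pacemaking, was at 26, 56.1 and 60.5 CPM against 32.8, 44.5 and 68.8 CPM and was not called (-0.05).

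Genes of calcium handling had calls in both directions (all genes: 7.18% rose and 3.37% fell). Of 27 genes 7 rose and 4 fell (the buffers Calb1 and Calb2, Stim2, -0.87, and Camk2d, -0.54). Atp2a3, the SERCA3 pump of the endoplasmic reticulum, was at 126, 102 and 83.6 CPM in the SNr IPs and 21.3, 38.8 and 44.1 CPM in the VTA IPs (1.57 ± 0.34, adjusted p = 0.00453). It stood above Input in both regions (3.63 and 2.29), with 4.25 to 7.58 CPM in the Inputs. The plasma membrane pump Atp2b1 (0.97), the release channels Ryr1 (5.08), Ryr2 (0.97) and Itpr2 (2.39), Pvalb and Camk2a (0.84) rose too, and Itpr2 and Pvalb were below Input in both IPs.

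Of 25 genes of diacylglycerol and phosphoinositide signaling 5 rose (Dgkb, 0.85, Plcl1, 0.85, Plcb1, 0.68, Pik3r1, 0.61, and Prkcd, 1.26) and 1 fell. The shares over all genes were 7.18% and 3.37%. Without VTA IP replicate 2 the calls of Dgkb (adjusted p = 0.114), Plcl1 (0.113) and Prkcd (0.0714) were lost, and without SNr IP replicate 3 that of Prkcd (0.067). Plcl1 was also lost without VTA IP replicate 3 (0.0748) or SNr IP replicate 2 (0.0978). Homer2, a scaffold of metabotropic glutamate receptors, was at 98.5, 70.2 and 128 CPM against 56.8, 56.1 and 64.1 CPM without overlap but missed the threshold (0.72, adjusted p = 0.0733), as did Dgkz, a diacylglycerol kinase, at 310, 304 and 250 CPM against 171, 207 and 182 CPM (0.61, adjusted p = 0.0737). Both passed in the fit of the 6 libraries alone (adjusted p = 0.0406 and 0.00913). Prkca, protein kinase C alpha, was at 734, 661 and 620 CPM against 576, 641 and 655 CPM (0.09).

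Vesicle, guidance and retinoid genes were mixed. Over all genes 7.18% rose and 3.37% fell, and the shares of vesicle and guidance genes that rose were near the first value. Of 30 synaptic vesicle genes 3 rose and 4 fell, among them the dense-core vesicle factor Cadps2 at 683, 617 and 325 CPM against 1301, 1353 and 1490 CPM (-1.37). Of 13 familial parkinsonism genes 1 fell and 0 rose. Of 41 axon guidance and adhesion genes 4 rose and 7 fell, including Slit2 (-1.5), Slit1 (-0.96), their fellow guidance gene Plxnc1 (-2.1) and T-cadherin Cdh13 (321, 265 and 192 against 612, 529 and 552 CPM, -1.14). Of 14 tested genes of retinoid and aldehyde metabolism, Aldh1a1, Aldh1a7, Aldh1a2 and Aldh2 rose, the last a call lost without any 1 VTA IP (adjusted p of 0.0542 to 0.0892) or SNr IP replicate 2 (0.0991). Cyp26b1, which degrades retinoic acid, fell, at 2.73, 2.72 and 5.47 CPM against 39.5, 51.3 and 37.6 CPM (-3.58, adjusted p = 0.000159), and it did not differ detectably in Input (-0.06, adjusted p = 0.895).

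Of 45 tested cytosolic ribosomal protein genes 0 rose and 1 fell, with a median of -0.01 (the 1 call was lost without any 1 VTA IP and without SNr IP replicate 3), and of 40 nuclear-encoded respiratory chain genes 0 were called (median 0.02, range -0.51 to 0.5). Of 13 immediate early genes Egr1 (2.4), Egr3 (5.58) and Fosl2 (2.78) rose, the last a call lost without any 1 VTA IP (adjusted p of 0.0912 to 0.117) and without SNr IP replicate 2 (0.145) or 3 (0.0519), and Egr1 and Egr3 were higher in the SNr Input as well (1.79 and 4.18).

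**Figure D4:**
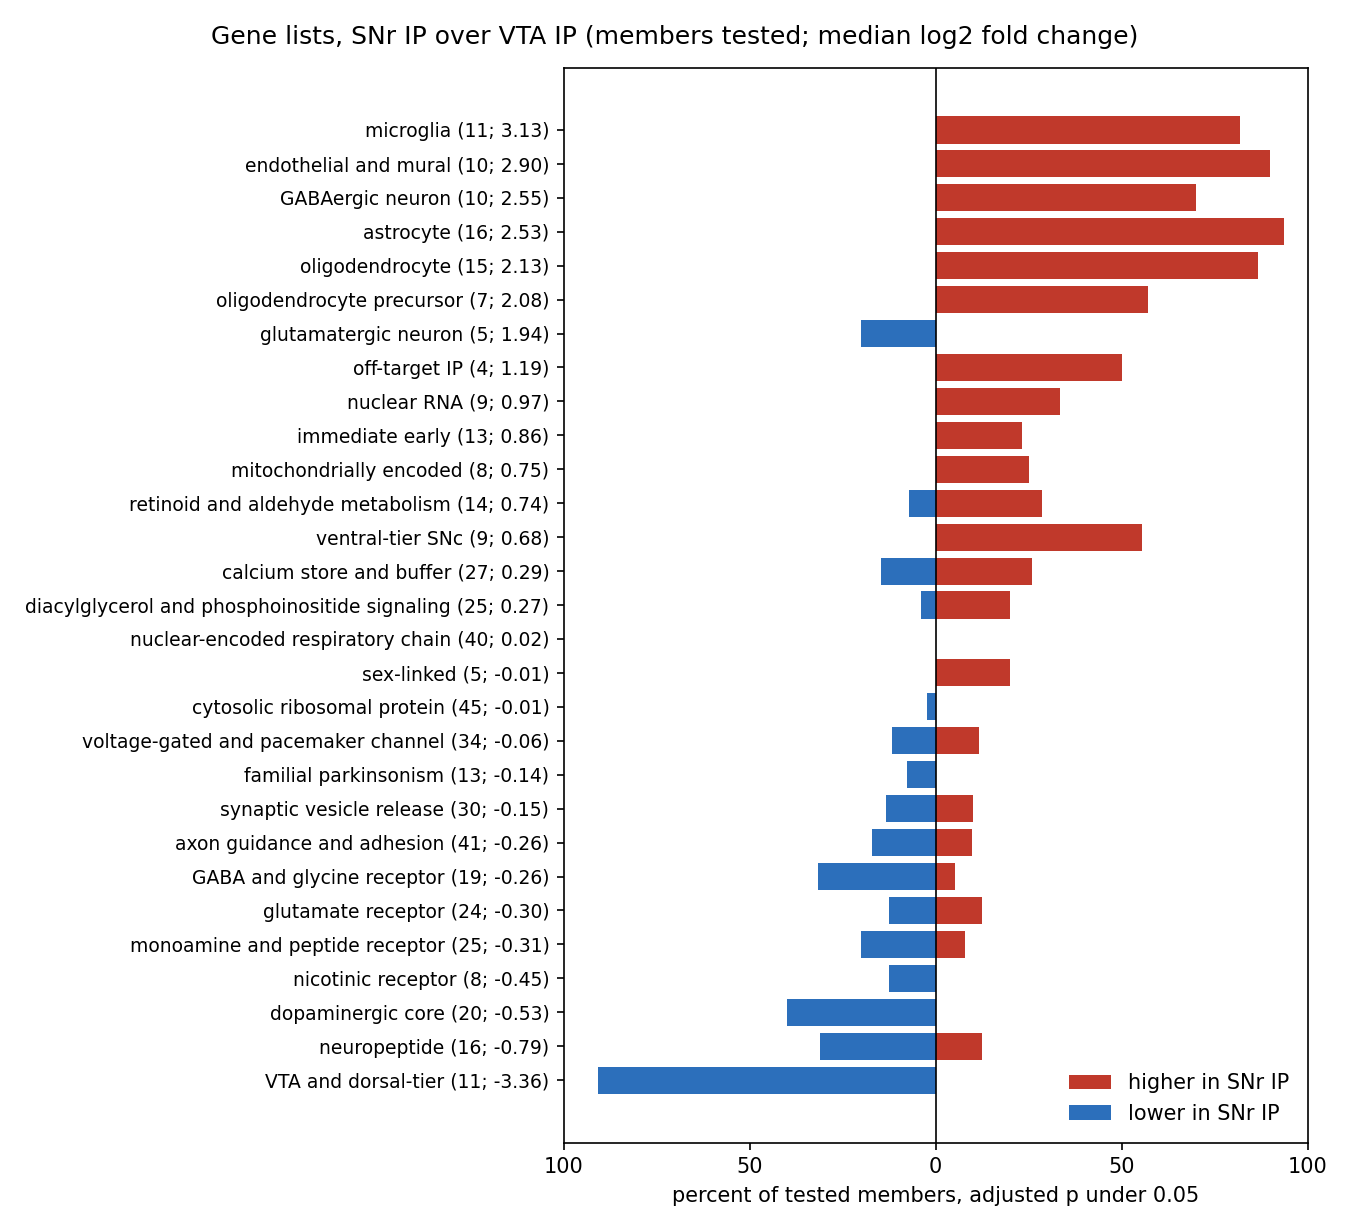
Percent of the tested genes of each list that were higher (red, to the right) or lower (blue, to the left) in the SNr IP than in the VTA IP, with the number tested and the median log2 fold change in brackets. Over all genes tested these shares were 7.18% and 3.37%. The red blood cell list and the serotonergic and noradrenergic list, with 3 and 2 tested genes, are not drawn. Among the lists drawn, the 6 of highest median are those of non-dopaminergic cells. The lowest is the VTA and dorsal-tier list, with a median of -3.36, while 1 of 45 ribosomal and 0 of 40 respiratory chain genes were called.

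The same regions were also sequenced as shallow UMI libraries, from mice with and without Cre. They held 34691 to 68966 UMIs each in the Cre-positive IPs and 17831 to 58469 in the Cre-negative ones, so their values are coarse, and they are given as CPM of UMIs. In Cre-positive IPs 83 of 11161 genes (0.744%) differed between SNr and VTA, 55 (0.493%) higher and 28 (0.251%) lower, and in Cre-negative IPs 111 (0.995%) did, 72 (0.645%) higher and 39 (0.349%) lower. The Cre-positive count was 43 without SNr replicate 3, and 43.6% of the Cre-negative calls were higher in the SNr with TMMwsp scaling, against 64.9% here. Of the 712 genes that were higher in the deep SNr IP and tested here, 609 had the same sign in the Cre-positive and 568 in the Cre-negative libraries, where 5899 and 5830 of all 11161 genes were positive. Of 442 lower genes, 345 and 294 had the same sign, where 5109 and 5302 of all 11161 genes were negative.

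The VTA and dorsal-tier list was again low in Cre-positive SNr IPs, with 6 of 9 tested genes falling and 0 rising. Calb1 had 18.4 to 57.7 CPM in the 4 SNr libraries and 254 to 549 in the 4 VTA libraries (-3.41, adjusted p = 2.42e-08), and in the Cre-negative libraries 0 to 61.6 and 17.5 to 159 (-0.92, adjusted p = 0.772). Calb2 (-2.1), Cck (-1.86) and Lpl, Grp and Tacr3 were the other 5. In Cre-negative IPs 3 of the 9 fell, Calb2 (-3.49), Cck (-2.29) and Slc17a6 (-2.83). The ventral-tier list had 8 tested genes and 0 calls in either genotype. Aldh1a1 was at 2652 to 3392 CPM in the SNr and 1416 to 1958 in the VTA Cre-positive libraries, with no overlap, though its test missed the threshold (0.72, adjusted p = 0.337). Th did not differ detectably between the Cre-positive regions (2229 to 3211 against 2454 to 3699 CPM, -0.15, adjusted p = 0.94) but was lower in the Cre-negative SNr (21 to 185 against 185 to 683, -2.04, adjusted p = 2.92e-05).

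Glial mRNAs were higher in the SNr whether or not the mice carried Cre. Gfap was at 98.8 to 400 CPM in Cre-positive SNr IPs and 0 to 47.8 in VTA IPs (4.2, adjusted p = 1.34e-07), and at 338 to 1122 and 0 to 116 in the Cre-negative ones (4.19, adjusted p = 5.87e-22). Of the 16 astrocyte genes 5 rose in Cre-positive and 7 in Cre-negative SNr IPs, and of the 15 oligodendrocyte genes 6 and 3 did. Without the Cre-positive SNr replicate 3 the Cre-positive calls were 3 astrocyte and 2 oligodendrocyte genes higher and 4 VTA and dorsal-tier genes lower. A test of whether the regional difference depended on Cre passed for 10 genes (0.0896%, 5 or 0.0448% in each direction, 727 at an unadjusted p under 0.05), with 0 in the astrocyte, oligodendrocyte and VTA and dorsal-tier lists, and DESeq2's Wald test called 0 genes (356 at an unadjusted p under 0.05). Among the 10 were Malat1 and Bcar1, higher in the SNr in Cre-positive libraries (1.72 and 1.92) but not in Cre-negative ones (-0.31 and 0.19).

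**Figure D5:**
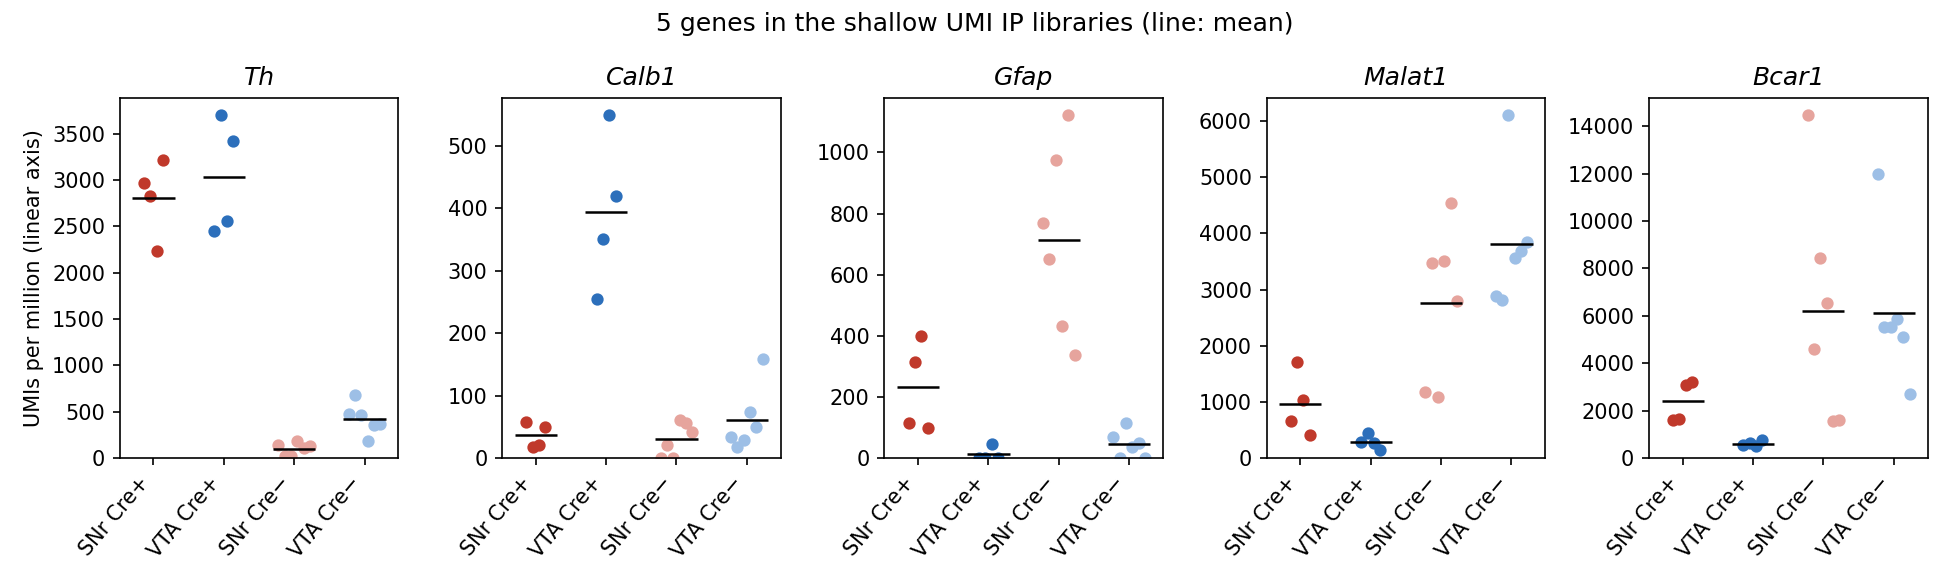
Level of 5 genes, in CPM of UMIs, in each shallow IP library, on linear axes that start at 0, for SNr and VTA libraries of Cre-positive (4 each) and Cre-negative (6 each) mice, with a line at the mean. Calb1 is highest in the Cre-positive VTA libraries, at 254 to 549, Gfap is higher in the SNr in both genotypes, and Th is at 2229 to 3699 with Cre and at 21 to 683 without.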

How the data were processed

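Full-length libraries were made by the authors with a stranded total RNA kit for small inputs; reads of ribosomal RNA were removed with Bowtie2, the rest aligned with STAR 2.6.7a to GRCm38.p6 and counted over exons with featureCounts 1.6, unique reads only, per the labels and the study's methods. The deposited values are raw counts per gene in 1 table. The UMI libraries are 3′-end counts, deposited as collapsed UMI counts per gene with an older annotation, so the data types were fitted apart, and 346 UMI libraries of other experiments were not used.

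Counts were tested in R 4.3.3 with edgeR 4.0.16 (quasi-likelihood, TMM scaling, edgeR's filter on low counts, Benjamini-Hochberg threshold 0.05). The 9 IP libraries, the 9 Inputs and all 18 libraries were each fitted with 1 mean per region and fraction, and the 30 UMI IPs with DESeq2 size factors and at least 10 UMIs per gene. DESeq2 1.42.0, other scalings, no filter and leaving out each library were the alternatives, and 1 scaling, on genes 2-fold above Input, was added after the data were seen. Depth limits the precision of low counts.

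Named genes followed a rule. In the main comparison these were, for each direction, the 10 genes called most strongly whose mean level reached the median of the tested genes, predicted and mitochondrial ones aside. Added to them were the 4 lowest p-values of each list, all core and subtype genes, and Atp2a3, Homer2, Dgkz and Prkca, which the study names for the SNr. Other members are named as examples, chosen after their values were seen. The comparison and the 31 lists were chosen with earlier results of these data known. Some genes that the rule names are not reported here.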

Additional observations from a re-analysis of the deposited data

Results flagged for a closer look

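In the shallow UMI IP libraries 88 groups of 4 or 6 values were tested for a value far from the others, and 7 had one; chance alone gives about 1 in 20. In single libraries, in CPM of UMIs, these were a Gfap level of 47.8 and an Acap2 level of 31449 in the Cre-positive VTA IPs, where the other 3 libraries held no Gfap, an Aldh1a1 level of 3392 in the Cre-positive SNr IPs, a Calb2 level of 61.6 and a summed ventral-tier level of 729 in the Cre-negative SNr IPs, and a Malat1 level of 6110 and a Bcar1 level of 11989 in the Cre-negative VTA IPs.

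The test of whether the regional difference depended on Cre passed for 10 of 11161 genes (0.0896%) in the main fit and for 0 with DESeq2's Wald test. The log2 difference between the Cre-positive and the Cre-negative SNr-over-VTA ratio was 4 for Gpld1, 2.69 for Gm42826, 2.02 for Malat1, 2.02 for mt-Cytb and 1.72 for Bcar1, and -7.91 for Acap2, -3.08 for AA474408, -3.08 for Gm20775, -2.6 for Mir6236 and -1.77 for Lars2. The Acap2 value rests on the Cre-positive VTA libraries, of which the highest held 31449 CPM and the median was 7.25, and in the deep IPs Acap2 was higher in the SNr (1.08).

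Of the genes named, Aldh1a1 and Lpl had regional differences of opposite sign in IP and Input, each past the threshold in both. The IP difference exceeded the Input difference by 1.06 for Aldh1a1 and by -3.94 for Lpl.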

How the results depend on the processing

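The count of genes called between SNr and VTA IP was 1617, and 1630, 1808, 2289, 1466 and 1654 with DESeq2 size factors, no filter, DESeq2's Wald test, the 6 libraries alone and the scaling on genes above Input. It rose to 4188 when all 18 libraries shared 1 estimate of the spread. Leaving out 1 library gave 906 to 1733, with 1062, 1037 and 906 without VTA replicates 1, 2 and 3. The Input count stayed between 3632 and 4208 on leaving out 1 library. The test of IP against Input gave 1031, 1558 with the Wald test and 674 (without SNr Input replicate 2) to 1431 on leaving out 1 library. For UMI Cre-positive libraries the count was 83, and 43 (without SNr replicate 3) to 92 on leaving out 1 library. The test of dependence on Cre gave 10, 17 without a filter, 0 with the Wald test, where 356 had an unadjusted p under 0.05, and 7 to 15 on leaving out 1 library. Scaling by TMMwsp put 43.6% in place of 64.9% of the Cre-negative calls higher in the SNr, and 69.2% in place of 50% of the calls that depended on Cre.

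Of 153 named genes (149 in the fit of the 6 libraries alone), 132 to 151 kept their direction and their side of the threshold in each alternative. The sign turned for genes near 0: Pitx3 (0.01 with DESeq2 size factors, 0.01 with the Wald test, 0 with the 6 libraries alone, 0.22 with the scaling on genes above Input, 0.04 without SNr replicate 2), and with that scaling Slc6a3 (0.18), Lmx1b (0.09), Gucy2c (0.02), Ndnf (0.14) and Kcnj6 (0.07). It also turned on leaving out 1 SNr library, with values from -1.14 to 2.43 for Slc17a8, -0.15 to 0.06 for Slc6a3, -0.19 to 0.04 for Pitx3, -0.34 to 0.01 for Gucy2c, -0.23 to 0.11 for Ndnf and -0.43 to 0.04 for Kcnj6. The cause was not tested. No paired analysis was possible because the labels give no number shared by SNr and VTA libraries, although these may come from the same animals. The depth of the SNr IPs limits genes of a few CPM.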

Other observations

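mRNAs of striatal projection neurons were present in the SNr libraries. The genes named here were chosen after their values were seen. Ppp1r1b, which encodes DARPP-32, was at 95.5, 113 and 168 CPM in the SNr IPs and at 1.94, 2.11 and 2.07 CPM in the VTA IPs (5.91, adjusted p = 1.66e-09), and it had the smallest p of all genes tested. The adenosine receptor gene Adora2a was at 32.3, 11.6 and 13.7 CPM against 0.176, 0.211 and 0 CPM (7.06). The Inputs differed as well, by 3.79 and 5.61, and both genes stood below Input in the SNr IP (-1.7 and -1.99). Rgs9 (1.9) and Pde10a (1.87), also striatal, rose too, and Pdyn missed the threshold (2.38, adjusted p = 0.0597).

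The predicted genes Gm10800 and Gm10801 had their highest values in SNr IP replicate 3. Gm10800 was at 2256, 3197 and 9874 CPM in the SNr IPs and at 47.3, 29.8 and 2.07 CPM in the VTA IPs, and Gm10801 at 330, 428 and 1444 CPM against 5.19, 3.17 and 0.243 CPM. The calcium-sensing receptor gene Casr, at 1.98, 2.91 and 2.99 CPM in the SNr IPs and 97.6, 70.9 and 86.3 CPM in the VTA IPs (-5.02), was among the steepest falls and stood above Input in both regions (1.43 and 2.53).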
